A study of Mus musculus with 2 samples.

Results

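The transcription factor USF1 was mapped by ChIP-seq in the cell line CH12.LX, which derives from a B-cell lymphoma of the mouse strain B10.H-2aH-4bp/Wts. The data are 1 group of 2 biological replicates, with no other genotype, treatment or time; both replicates come from the same line. The regions described here are those of the authors' optimal list that stand in groups. A region was called clustered when at least 2 other optimal summits lay within 25 kb of its own summit on the same chromosome, not counting summits nearer than 500 bp. This held for 1097 of 8108 optimal regions (13.5%). They are set against 4881 isolated regions (60.2%), which have no other optimal summit within 25 kb, and the 2130 regions that fall in neither class are not compared. The lists hold no RNA measurement, so the cell type was not checked against its markers here.

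USF1 is a basic helix-loop-helix leucine zipper factor that binds DNA as a dimer, often with USF2. Its site is the E-box, above all the palindrome CACGTG, and the related hexamer CACATG, which reads as CATGTG on the other strand, is a known variant. USF1 is known for binding near gene starts, and MYC, MAX, MNT and the TFE factors can bind the same hexamer.

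The sequences at 3 loci show what a cluster looks like in sequence. They come from the authors' mm9 list, ranked by the number of clustered peaks with CACGTG within 50 bp of the summit. The first locus has 6, and the next are the 2 with the highest summed signal among 5 loci tied at 5. They were read from the NCBIM37 genome on the plus strand, 5′ to 3′, with the E-box in capitals. On chromosome 9 the locus around the hyaluronidase genes Hyal1 and Hyal2 had 9 clustered peaks, 6 of them with CACGTG.
Hyal2 (chr9:107471671-107471700): gaactctggcccCACGTGcggggcgggggc
Hyal1 (chr9:107477981-107478010): cacggaaaaagtCACGTGacaccacagtct
Ifrd2 (chr9:107490408-107490437): tgctaaggctcgCACGTGccccagctggca
Sema3b (chr9:107511221-107511250): ccccccgctggcCACGTGggcactaggtca
Slc38a3 site a (chr9:107566037-107566066): aggacagaacatCACGTGactgtggccccc
Slc38a3 site b (chr9:107568875-107568904): gggcgcagttctCACGTGctccatccttgg
Each is named by the gene with the nearest start. The Hyal2, Ifrd2, Sema3b and Slc38a3 site b summits lay within 1 kb of a protein-coding transcript start. The Hyal1 and Slc38a3 site a summits did not. The signal of these 6 peaks ran from 29.6 at Slc38a3 site b to 198 at the Hyal1 peak.

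On chromosome 19 all 5 clustered peaks of a locus around Bscl2, which encodes the lipid droplet protein seipin, and Ubxn1 held CACGTG.
Bscl2 site a (chr19:8914519-8914548): ggttggctgcatCACGTGggtcacagaagg
Bscl2 site b (chr19:8916144-8916173): aaagagcctggtCACGTGtgtaataccagt
Lrrn4cl (chr19:8932356-8932385): acaaatgtgtccCACGTGagcacacactct
Ubxn1 (chr19:8945973-8946002): ccaccctgcctcCACGTGacacaaacagac
AI462493 (chr19:8955471-8955500): taaacacacgcgCACGTGcacacacagaaa
The same hexamer came with very different signal. The Ubxn1 peak had a signal of 3543, and the other 4 peaks had values between 37.1 and 89.8.

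On chromosome 6 the locus at Ninj2, the gene of an adhesion molecule, had 6 clustered peaks, 5 of them with CACGTG.
Ninj2 site a (chr6:120033040-120033069): ctcacggaagatCACGTGactatcagtggc
Ninj2 site b (chr6:120035226-120035255): gttcgcagcaacCACGTGgtggttcatgac
Ninj2 site c (chr6:120041138-120041167): cttgtttccttcCACGTGatgcctatgtgc
Ninj2 site d (chr6:120044300-120044329): gtcatgaaccacCACGTGgttgctgcgaac
Ninj2 site e (chr6:120060093-120060122): gtctctctggatCACGTGggctccagtcct
Sites b and d of Ninj2 carry stretches that are reverse complements of each other, and their summits lie 9039 bp apart. Over the window searched, which reaches 50 bp to either side of a summit, they were 83.2% identical. This was the only pair of windows at or above 80% identity within a locus, so 2 of 1662 peaks compared had such a partner. The median identity of 2390 pairs within a locus was 45.5%, and it was also 45.5% for 589 neighbouring peaks of different loci. Neighbours within a locus were no more alike by this median than peaks of different loci.

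The 1097 clustered regions fell into 394 loci. A locus is a run of optimal summits each within 25 kb of the next that holds at least 1 clustered region. The runs had a median span of 21404 bp, and neighbouring summits in them lay a median of 7748 bp apart (quartiles 2337 and 15413 bp). By number of clustered regions, 190 loci had 3, 62 had 4, 20 had 5, 6 had 6 and 3 had 7. A further 104 loci had 1 clustered region whose neighbours were not clustered themselves, and 9 had 2. For 40 clustered regions (3.65%) the 2 neighbours lie under 500 bp from each other, so these stand beside a close pair. The 46 regions whose second neighbour lay at 24 to 25 kb had a median signal of 76.7, and the 36 at 25 to 26 kb had 74.1. The nearest inside was a region near Ier3 with its second neighbour at 24978 bp, and the nearest outside was near Rftn1 at 25016 bp.

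The 3 loci with 7 clustered regions had no proximal member, that is, none within 1 kb of the start of a protein-coding gene. The Nfatc1 locus, at a transcription factor gene of the calcineurin pathway, had 7 clustered regions over chr18:80612115-80652916 (mm10). All 7 lay inside the gene, between 60155 and 100956 bp from its 5′ end, with signal from 33.6 to 320. The locus at Ccr7, the gene of a chemokine receptor that guides lymphocytes to lymph nodes, also had 7, over chr11:99139829-99168395, with signal from 40.7 to 202. Of these, 3 lay inside the gene and 4 outside it. A pair of the Ccr7 regions overlap and share the same replicate regions, as do a pair at Sema4b, so they are not separate measurements. The other locus with 7, over chr16:38360592-38407735, had Popdc2 or Pla1a as the nearest gene of every region. It ran from a summit 1569 bp from the Popdc2 start to one 25456 bp from the Pla1a start. Some of its regions lay inside genes and others outside them.

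Of the 6 loci with 6 regions, several had summits at gene starts as well as inside genes. At Mnt, which encodes a repressor that pairs with MAX, the 6 regions covered chr11:74828507-74838678 and had a summed signal of 844. The summit 6 bp from the Mnt start had a signal of 170 and the strongest, 1486 bp from the start, had 245. At Prkcd, the gene of protein kinase C delta, the start had the signal 55.8, while the strongest region lay 18489 bp from the start and had 289. At Batf, which encodes an AP-1 family factor, the order was the other way round. The Batf start held the strongest region of its locus, at 310, and the other 5 regions ran from 39.2 to 113. In the Sema4b locus the strongest region, at 310, lay 11626 bp from the gene's 5′ end and inside another RefSeq promoter window of the same gene.

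A locus on chromosome 17 was made of promoters only. Its 5 regions over chr17:56990329-57031864 lay at the starts of Clpp, Alkbh7, Gtf2f1 and Khsrp, and their signals summed to 2044. Gtf2f1, which encodes a subunit of the general factor TFIIF, had a signal of 582. Alkbh7 had 536, a pair of regions near Khsrp had 576 and 202, and Clpp, the gene of a mitochondrial protease subunit, had 147. Among the loci of 3 or more regions with the strongest weakest member outside these, Ctsb came first. Ctsb encodes the lysosomal protease cathepsin B, and it had 455 at its start, 302 at 1382 bp and 248 at 8379 bp inside the gene. Eef2, which encodes a translation elongation factor, had 574 at its start, and the neighbouring gene Pias4 had 519 at its own.

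**Figure D1:**
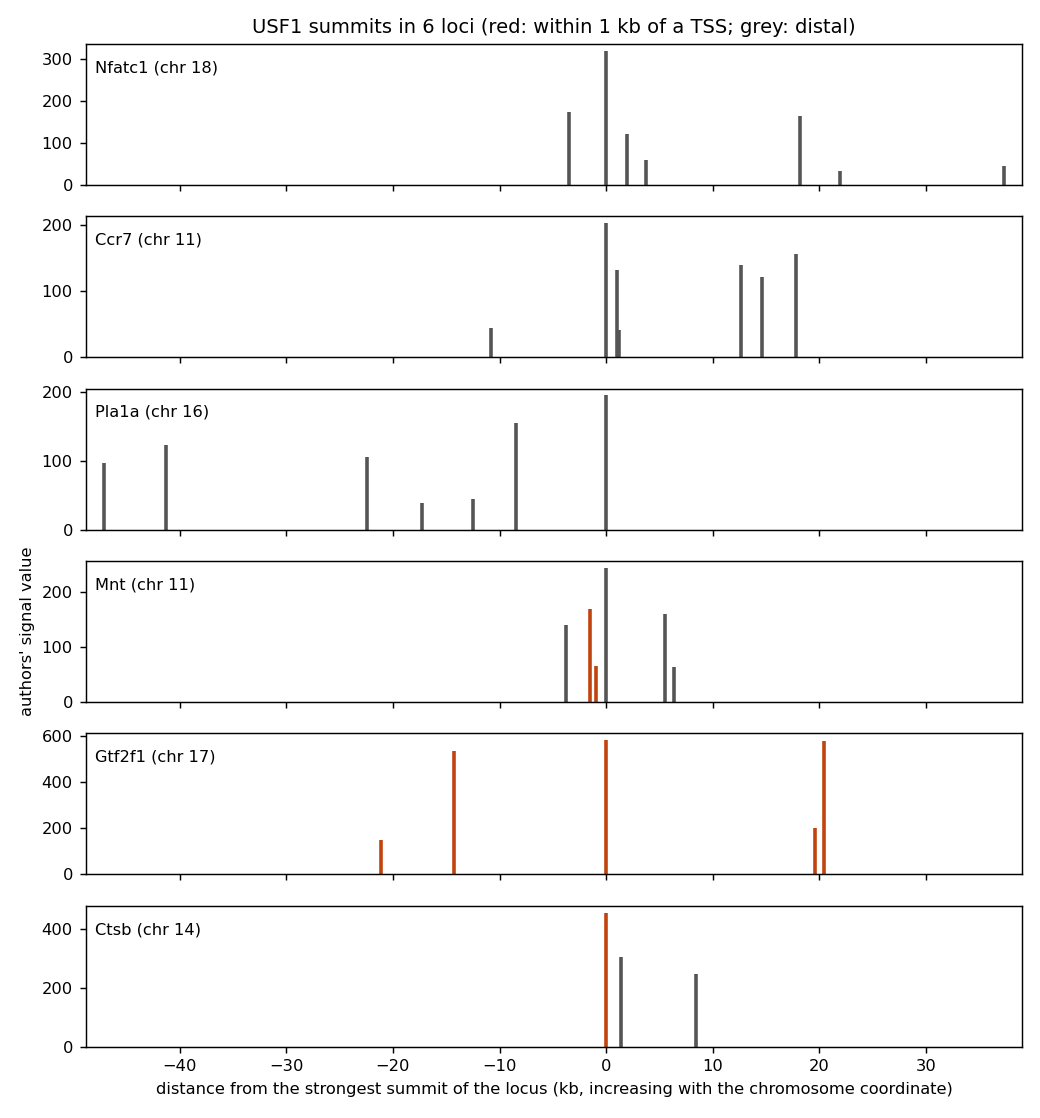
Height of each optimal summit (the authors' signal value) against its distance in kb from the strongest summit of its locus, in 6 clustered loci; red summits lie within 1 kb of a TSS and grey ones do not. The Nfatc1, Ccr7 and Pla1a loci have no red summit, the Gtf2f1 locus has only red ones, and the Ctsb locus is strongest at the start.

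For promoter sequence at mm10 summits, RefSeq windows from 250 bases before to 50 bases after a start (GRCm38.p6) were used. Stretches of 30 bases around the CACGTG nearest to the summit are shown for 5 promoters of the loci above, on the strand of the gene.
Gtf2f1 (chr17:57011428-57011457, minus strand): cgggcgtgtctaCACGTGacttttccgtgg
Alkbh7 (chr17:56997159-56997188, plus strand): tggctttgccccCACGTGacctccagcctc
Eef2 (chr10:81176576-81176605, plus strand): acccggcgccgtCACGTGacgcacccaacc
Mnt (chr11:74830789-74830818, plus strand): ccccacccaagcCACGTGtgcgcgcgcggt
Sema4b (chr7:80198474-80198503, plus strand): ggtgcggcggccCACGTGaccaccttccct
CACGTG, which reads the same on both strands, was present in 91 of 162 promoter windows that hold a clustered summit (56.2%) and in 606 of 1047 that hold an isolated summit (57.9%). Of all 32851 promoter windows, 7.15% hold it. The windows of Scly, Arhgdia, Batf, Bst2 and Mvb12a, which also hold a clustered summit, do not contain these letters.

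The promoter share of clustered regions was lower than that of isolated ones, by a difference that did not pass the test. A summit within 1 kb of the start of a protein-coding gene was called proximal. Of clustered regions 247 of 1097 were proximal (22.5%, Wilson 95% interval 20.1 to 25.1), against 1336 of 4880 isolated regions (27.4%, 26.1 to 28.6). With 1 region per locus, the first by position, 93 of 394 clustered regions were proximal (23.6%), and the odds ratio against isolated regions was 0.820 (two-sided Fisher's exact test, p = 0.112, Benjamini-Hochberg adjusted p = 0.279 over 5 tests). Taking the last region of each locus gave an odds ratio of 1.01, so the direction depends on which region stands for a locus. Using every clustered region gave 0.771 (Fisher's exact test, adjusted p = 0.00489), but this treats neighbours of the same locus as independent. In the mm9 list, clustered by the same rule, a summit within 1 kb of any protein-coding transcript start was proximal. The shares there were closer, at 26.8% of 1804 clustered peaks (24.8 to 28.9) and 28.4% of 5813 isolated peaks (27.2 to 29.5). They were not tested. The p-values compare regions of the same lists, not cultures, and the intervals cover counting error only.

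By signal, the promoter shares were furthest apart among the strongest regions, which is given as a description. When the optimal list was split by signal into 3 equal parts, the strongest part had 30.9% of its clustered regions at promoters, against 45.5% of its isolated regions. In the weakest part the shares were 19.6% of clustered and 16.9% of isolated regions. With 1 region per locus the strongest part gave 35.4% (first of the locus) or 38.6% (last of the locus) for clustered regions, with intervals of 27.7 to 43.9 and 30.9 to 46.8, against 43.1 to 48.0 for isolated regions. Other starts were counted as protein-coding starts over 1 kb and up to 25 kb from the summit. None lay there for 367 of 1097 clustered regions and 2900 of 4880 isolated regions. The nearest start of a distal region could be among them, but a start that made a region proximal could not. These strata therefore depend in part on promoter position itself and are not a measure of gene density alone. With no other start, 21.8% of clustered and 28.4% of isolated regions were proximal. Where at least 2 other starts were counted, 32.0% of clustered and 28.6% of isolated regions were proximal. With 1 other start the shares were 15.3% and 24.6% for clustered and isolated regions.

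Away from promoters, clustered regions lay closer to genes. Of the distal regions 60.4% of clustered ones lay inside a protein-coding gene, against 51.6% of isolated ones. Their median distance to a start was 15018 bp, against 33843 bp for isolated regions. Of all clustered regions 4.65% lay over 100 kb from a start, against 14.5% of isolated regions. These distances were not tested. Of the distal clustered regions, 69 of 850 (8.12%) lay within 1 kb of another RefSeq start, such as that of Sema4b.

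Signal differed between the classes by position. Clustered regions had a median signal of 77.2 (quartiles 47.9 and 158), against 70.7 (45.5 and 151) for isolated regions. Proximal clustered regions had a median of 112, against 133 for proximal isolated regions, while distal clustered regions had 72.7, against 63.2 for distal isolated regions. Each replicate gave the same order. In replicate 1 the medians were 52.8 for clustered and 64.6 for isolated proximal regions, and 34.1 for clustered and 29.7 for isolated distal regions. In replicate 2 they were 63.2 for clustered and 72.3 for isolated proximal regions, and 39.3 for clustered and 34.2 for isolated distal regions. The quartiles overlap widely, and no test was made, because the lists were thresholded on the same data.

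**Figure D2:**
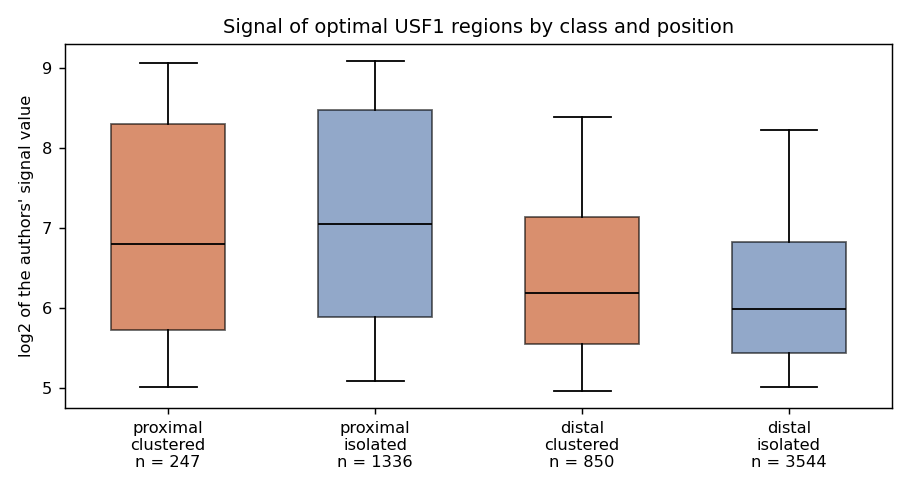
Log2 of the authors' signal value for proximal and distal optimal regions, clustered beside isolated; boxes are quartiles with the median, and whiskers run from the 5th to the 95th percentile. Clustered medians lie below isolated ones at promoters and above them elsewhere, and the boxes overlap.

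Signal within a locus is described by its strongest and weakest members. In 281 loci with 3 or more clustered regions the strongest had a median of 4.94 times the signal of the weakest (quartiles 2.79 and 8.04). Such a ratio cannot fall below 1, and it was not set against regions taken from different loci. Of the 394 loci, 223 (56.6%) had no proximal member, 108 had 1 and 63 had 2 or more. In 148 loci (37.6%) the run of summits held no 5′ end of a protein-coding gene. Other RefSeq starts, such as those of non-coding genes, were not counted in this. In 128 loci with both kinds of member, the strongest was proximal in 72 (56.3%), where 41.4% of their members were proximal. In 176 of the 281 larger loci (62.6%) every member had the same nearest gene.

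Nearly all regions of both classes were found in both replicates. A region of each replicate overlapped 1092 of 1097 clustered regions (99.5%) and 4848 of 4881 isolated regions (99.3%). The relaxed lists used for this held 25978 regions in replicate 1 and 44551 in replicate 2. Because the optimal list was derived by IDR from the same replicates, a high share follows for both classes. Spearman's rho of replicate signal across regions was 0.888 (0.874 to 0.901) for clustered and 0.869 (0.862 to 0.877) for isolated regions, given as a description because regions share libraries. Signal was over 2-fold apart between replicates in 78 clustered regions (7.14%), where 7.2% of all optimal regions were. Of these, 60 clustered regions were higher in replicate 2 and 18 in replicate 1, and 275 isolated regions were higher in replicate 2 and 81 in replicate 1. With 1 region per locus the share was 7.65% of clustered and 7.34% of isolated regions (odds ratio 1.05, Fisher's exact test, adjusted p = 0.840). The conservative list overlapped 83.2% of clustered regions, 1 per locus, and 83.6% of isolated regions (odds ratio 0.973, Fisher's exact test, adjusted p = 0.840). A p above the threshold does not show that the classes are equal in this.

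Single loci show the spread between replicates. At the Gtf2f1 start the signal was 288 in replicate 1 and 296 in replicate 2. At the Ctsb start it was 222 in replicate 1 and 230 in replicate 2. The Mvb12a start, in a locus on chromosome 8, had 61.2 in replicate 1 and 23.6 in replicate 2, and the Tmem221 region of that locus had 31.2 in replicate 1 and 67.5 in replicate 2. These neighbours differed between the replicates in opposite directions.

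**Figure D3:**
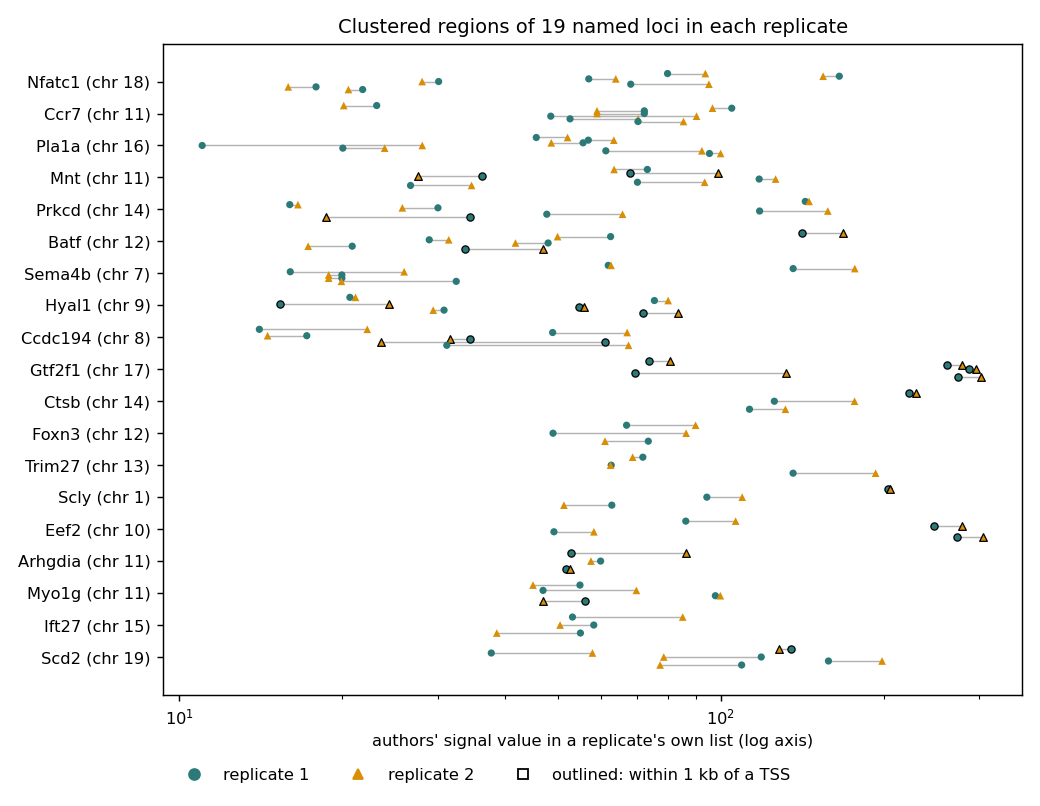
Signal value of each clustered region of 19 named loci in replicate 1 (circles) and replicate 2 (triangles), joined by a line, on a log axis; outlined symbols lie within 1 kb of a TSS. Most pairs lie close together, and the widest include Mvb12a (61.2 and 23.6) in the Ccdc194 locus.

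Clusters were also called in each replicate alone. Among the 8108 strongest regions of each replicate, 1054 were clustered in replicate 1 and 1118 in replicate 2. Of the 1097 clustered optimal regions, 967 (88.1%) were found among these strongest regions in each replicate. Of the same 1097, 812 (74.0%) were again clustered in replicate 1 and 810 (73.8%) in replicate 2. Of the isolated optimal regions 87.7% were found in replicate 1 and 87.4% in replicate 2. Isolated optimal regions were again isolated in 83.3% of cases in replicate 1 and 82.8% in replicate 2, and 11 became clustered in each.

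Chromosome 11 held the most clustered regions of any chromosome. It had 210 of them in 72 loci, which is 19.1% (16.9 to 21.6) of clustered regions, against 8.36% (7.61 to 9.17) of isolated regions. Of its 904 optimal regions 23.2% were clustered, followed by chromosome 15 with 19.7% and chromosome 10 with 16.6%. Chromosome 13 had the lowest share at 5.64%, and chromosome 3 had 6.76%. Chromosome 11 also had the most optimal regions per megabase, at 7.62, and per protein-coding start, at 0.568. The part of this density in the share of clustered regions was not tested.

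**Figure D4:**
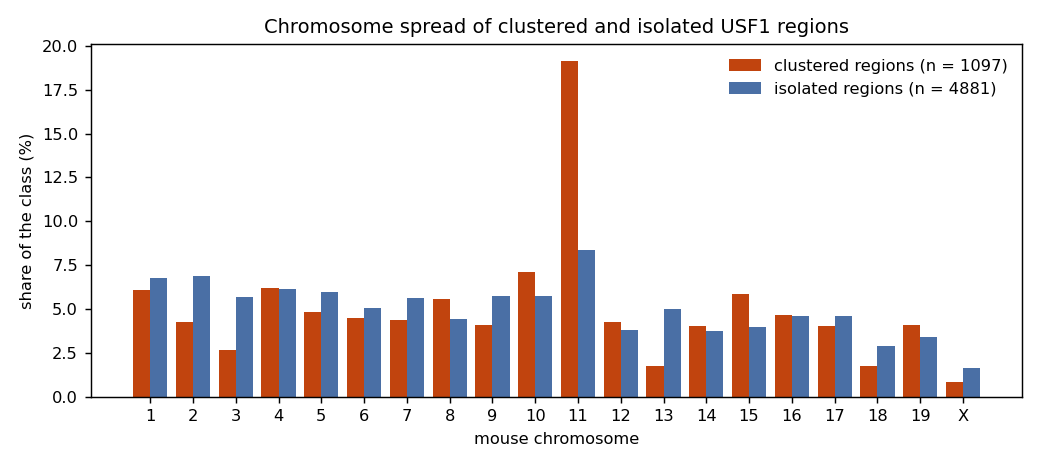
Share of all clustered regions and of all isolated regions on each mouse chromosome, in percent. Chromosome 11 holds 19.1% of clustered and 8.36% of isolated regions, while chromosomes 3 and 13 hold a smaller share of clustered than of isolated regions.

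E-boxes were read in the mm9 list, where 1804 of 10624 peaks were clustered by the same rule, in 609 loci, and 5813 were isolated. CACGTG lay within 50 bp of the summit in 48.2% of clustered peaks (45.9 to 50.5), against 55.2% of isolated peaks (53.9 to 56.4). With 1 peak per locus the share was 49.9% for clustered peaks, and the odds ratio was 0.810 (two-sided Fisher's exact test, p = 0.0147, adjusted p = 0.0735), which did not pass the threshold of 0.05. CACATG without CACGTG was found in 32.0% of clustered and 29.5% of isolated peaks, and with 1 peak per locus in 30.7% of clustered peaks (Fisher's exact test, adjusted p = 0.840). In windows centred 500 bp upstream CACGTG was found in 1.16% of clustered and 1.39% of isolated peaks.

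The lower CACGTG share was seen at each level of signal. In the strongest of 3 equal parts of the list it was 60.7% of clustered and 67.9% of isolated peaks, and in the weakest part 37.3% of clustered and 46.1% of isolated peaks. Among proximal peaks CACGTG was found in 53.1% of clustered (48.6 to 57.5) and 56.1% of isolated peaks (53.7 to 58.5). Neither hexamer was found in 32.0% of clustered and 32.4% of isolated proximal peaks. Among distal peaks neither hexamer was found in 15.4% of clustered (13.5 to 17.4) and 8.64% of isolated peaks (7.83 to 9.54). With 1 peak per locus that share was 15.7% for clustered peaks (12.6 to 19.3). Among windows with CACGTG the longer palindrome TCACGTGA was present in 18.2% of clustered and 28.5% of isolated peaks, and in 19.1% of clustered peaks with 1 per locus (15.1 to 23.9). These last comparisons were chosen after their values were seen and are descriptions.

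**Figure D5:**
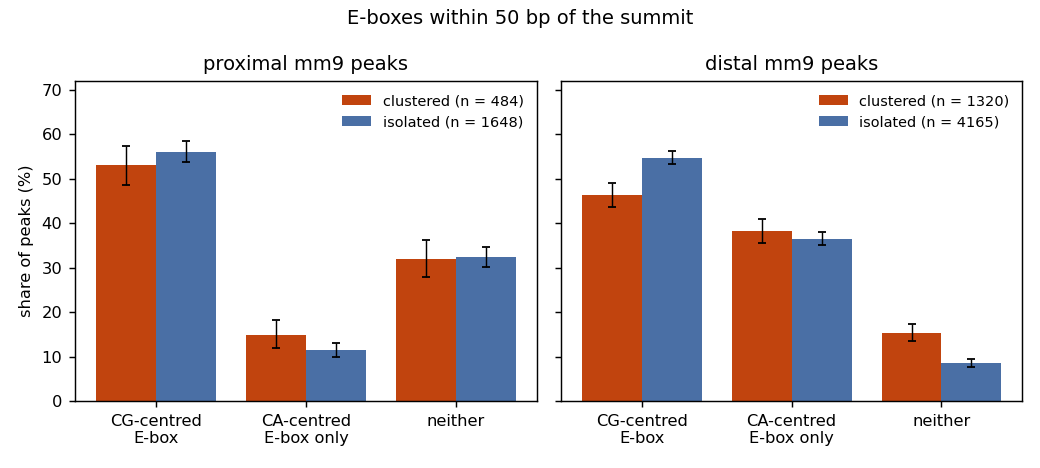
Share of proximal and of distal mm9 peaks with a CG-centred E-box (CACGTG), only a CA-centred one (CACATG), or neither within 50 bp of the summit; bars are percentages and error bars Wilson 95% intervals. Proximal here means within 1 kb of any protein-coding transcript start. Distal clustered peaks hold CACGTG in 46.4% and neither hexamer in 15.4%, against 54.8% and 8.64% of distal isolated peaks. Proximal clustered peaks hold CACGTG in 53.1% and neither hexamer in 32.0%, against 56.1% and 32.4% of proximal isolated peaks.

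Many of the larger clusters held both E-boxes. Of 446 mm9 loci with 3 or more clustered peaks, 41 (9.19%) had CACGTG at every member and 49 at none. Both hexamers occurred among the members of 271 (60.8%). Of all clustered mm9 peaks 48.2% had CACGTG and 32.0% had CACATG without it, so peaks grouped at random would also give mixed loci. Whether the loci were more mixed than that was not tested. The strongest member held CACGTG in 57.8% of these loci, and the other members in 43.9%. By gene name, Gtf2f1, Alkbh7, Khsrp and Clpp had CACGTG at 4 of 5 mm9 clustered peaks, whereas the 3 peaks at Scly and Espnl all had CACATG without CACGTG.

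Genes of the clock and of the E-box binding family were counted from lists. A clustered summit lay within 1 kb of the start of 244 of 21264 protein-coding genes (1.15%). Of 22 circadian clock genes 5 had one, namely Per1, Nr1d1, Dbp, Tef and Bhlhe41. Per1, a clock repressor, had a signal of 358 at its start, and Tef, which encodes a PAR bZIP factor, had 303. Of 21 genes of bHLH-ZIP factors 4 had one, namely Max, Mxd3, Mnt and Mlxip, and Max, the shared partner of MYC and MNT, had 411. Of 32 lysosomal genes 3 had one, Ctsb and Gusb among them, and of 41 genes of the large ribosomal subunit 3 had one, Rpl8, Rpl14 and Rpl27, with weaker signal from 29.0 to 48.4. These counts stand beside USF1 binding of any kind: 2393 of all genes had some optimal summit within 1 kb of the start and 10.2% of these had a clustered one. Of the list genes with any optimal summit, a clustered one was found at 5 of 9 clock genes, 4 of 8 bHLH-ZIP genes, 3 of 22 lysosomal genes and 3 of 12 ribosomal genes. The counts are few, and no list was tested.

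B-cell genes were counted at their starts and as nearest genes. Of 30 matched B-cell identity genes 3 had a clustered summit at the start (Cd79b, Spib and Irf4), whereas 7 were the nearest gene to a clustered summit, where 2.47% of all genes were. Over all genes 244 had a clustered summit at the start and 525 were the nearest gene to one, so starts made up a similar part of both counts. The other 4 of these 7 were Pax5, Ebf1, Lyn and Blk. Ebf1, which encodes an early B-cell factor, was the nearest gene to 6 clustered regions with signal from 56.2 to 233, and Pax5, a B-lineage commitment factor, to 3 from 61.7 to 148. Cd79b, a chain of the B-cell receptor, had only 29.8 at its start. The strongest clustered region with Cd79b as the nearest gene had 416 and lay 10511 bp from that start. A start inside the run of a locus, or within 1 kb of its ends, was found for 2.07% of all genes and for 4 of the 30 B-cell genes.

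Each of the other lists held 1 gene or none with a clustered summit at the start. Of 19 T-cell marker genes none had a clustered summit at the start, but Ctla4 was the nearest gene to 4 clustered regions and Gata3 to 2. V-ATPase genes had 1 of 16 (Atp6ap1) and genes of ER stress and chaperones 1 of 19 (Ddit3) with a clustered summit at the start. The lists of antigen presentation (18 genes), replication and cell cycle (26), the Schlafen family (8) and liver markers (19) had none. The share over all genes was 1.15%, so lists of these sizes may hold none at that share. In all lists a nearest gene is a position and was not linked to expression.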

How the data were processed

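USF1 ChIP-seq regions from 2 biological replicates of CH12.LX were used as deposited. Per the deposited readme files, the authors made a relaxed list per replicate and derived optimal and conservative mm10 lists by IDR; a separate mm9 list came from both replicates. No label or file header used here names the peak caller, the aligner or the read counts, so depth is unknown. The authors' signal value (column 7 of the deposited lists) was used as given; its scale is not stated, and signal was compared only within a build. Summits are column 2 plus column 10, printed 1-based.

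Gene starts in mm10 are the 5′ ends of protein-coding genes in RefSeq GRCm38.p6. Strand came from the RefSeq promoter table, then from Gencode vM1, for 21264 of 21627 genes (98.3%). In mm9, NCBIM37 and the starts of all Gencode vM1 protein-coding transcripts were used. A proximal peak in mm9 is therefore not defined as in mm10, where each gene had 1 start. Replicate values are those of the strongest region overlapping by at least 1 bp. The 5 odds ratios used Fisher's exact test, two-sided, with 1 region per locus, and Benjamini-Hochberg adjustment (SciPy 1.17.1). Intervals of Spearman's rho used Fisher's z transformation. Window identity was computed with edlib 1.3.9.post1. The test was checked on simulated data in which regions of a locus were drawn independently. Dependence within a locus was not checked. Named loci are the 10 with the most clustered regions, with ties (20 loci have 5) broken by summed signal, and the 10 others of at least 3 regions whose weakest member was strongest. The clustered regions, gene lists and tests were chosen with earlier results of these data known. Some named genes are not reported here. Alternatives changed the distances, list, promoter limit and locus representative.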

Additional observations from a re-analysis of the deposited data

How the results depend on the processing

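The number of clustered regions followed the distance: 390 at 10 kb, 2186 at 50 kb, and 218 in the stronger 50% of the list, against 1097; from 1 replicate alone it was 1054 to 1118. In mm9 the counts were 662, 3596 and 422 for the same settings, against 1804. The promoter odds ratio (0.820) passed the threshold when summits nearer than 2 kb were not counted (0.741, Fisher's exact test, adjusted p = 0.0481) and with every clustered region (0.771), which treats neighbours as independent. It turned with the last region of each locus (1.01) and with a 5 kb promoter limit (1.03). From 1 replicate alone it was 0.714 to 0.871, and it passed the threshold without replicate 2 (Fisher's exact test, adjusted p = 0.0367). An alternative added after seeing the data, with every RefSeq start, gave 0.822. The ratio for signal over 2-fold apart turned at 10 kb (0.723) and with every region (0.971). That for the conservative list turned at 10 kb (1.56) and without chromosomes 3, 11 and 16 (1.14); in the stronger 50% of the list it gave no value, since no region missed the conservative list. The CACGTG ratio (0.810) stayed under 1 in all 8 alternatives, from 0.627 to 0.894, and passed the threshold in the stronger 50% (0.627), with every peak (0.755), at 25 bp on each side (0.794) and in distal peaks only (0.773). The CACATG ratio stayed above 1, from 1.02 to 1.26, and never passed. The cause of these changes was not tested. No paired analysis was possible because the study has 1 group. With no read counts, depth limits cannot be given.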
